A study of Mus musculus with 144 samples.

Results

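The livers of CreER control mice at 24 months were compared with those at 6 months, both sexes weighted equally, across every gene that passed a filter on low counts. The comparison uses 12 of the 144 samples of the series: 3 young females, 3 old females, 3 young males and 3 old males, chosen by tissue, genotype and age alone and by no measured value. The series profiled bulk RNA from 6 tissues of mice carrying the naked mole-rat hyaluronan synthase gene (nmrHAS2), which makes the polysaccharide hyaluronan, and of CreER controls, at 6 and 24 months, to study how nmrHAS2 animals live longer and stay healthier. All 12 livers here are from mice labelled CreER, a tamoxifen-inducible form of the Cre recombinase. Neither the promoter that drives CreER nor any tamoxifen treatment is given in the labels, so how far these mice stand for untreated wild-type mice cannot be told. The labels also do not say whether each sample is a separate animal, and p-values here speak only of how far these samples differ among themselves. "Young" is 6 months and "old" is 24 months throughout.

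The liver is mostly hepatocytes, which secrete plasma proteins, detoxify drugs and steroids, make bile acids and handle fat, sugar and amino acids, with different tasks near the portal vein and near the central vein. Between the hepatocyte plates lie resident macrophages (Kupffer cells), sinusoidal endothelium and stellate cells, the main makers of scar matrix. Mouse liver is also strongly sexed: the male pattern of growth hormone pulses maintains a male set of genes, among them the major urinary proteins (pheromone carriers), and a different set is high in females. Ageing of mouse liver is known for immune cell accumulation and for some loss of these specialised functions. In bulk tissue, fewer cells of a type and less RNA per cell cannot be told apart.

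Levels are CPM, counts relative to the library total, after scaling by the trimmed mean of M-values (TMM), and a change is old against young on the log2 scale, given ± its standard error. A gene is said to have risen or fallen only where edgeR's quasi-likelihood test gave a Benjamini-Hochberg adjusted p under 0.05. Values of 3 samples are in the order of the replicate numbers.

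The samples differed in depth and in kind of library. Totals ran from 81184600 to 97347900 counts in young females, 39276400 to 84467900 in old females, 25822100 to 27877000 in young males and 21862100 to 23920500 in old males. RNAs without a poly(A) tail took 14.0 to 17.2% of the counts in females and under 0.01% in males, so levels are to be compared within a sex only. A difference between the sexes in the change with age cannot be told apart from one between these kinds of library. Among females, values that are not whole numbers made up 62.0 to 67.9% of values in the 3 young samples and in old female 3, but 25.9 and 26.6% in old females 2 and 1, so library kind and age partly coincide in females and not in males. Hepatocyte markers took 8.77 to 15.4% of the counts in each of the 12 samples, as the label liver calls for, and the nmrHAS2 transgene had 0 to 3 counts. On the first principal component, which held 46.0% of the variance, the 6 old samples lay between 33.9 and 142 and the 6 young samples between −94.2 and −72.5. Old male 1 stood apart from old males 2 and 3 in many genes below, and old female 1 and young female 3 in some.

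Rises and falls with age were about equally many. Of 17270 genes, 4656 rose (27.0%) and 4884 fell (28.3%) with both sexes together, and 10345 had an unadjusted p under 0.05. Rises were larger than falls: 3166 genes rose at least 2-fold and 1362 fell at least 2-fold. Males carried more calls, with 26.6% of genes up and 28.6% down, than females, with 14.6% up and 9.75% down. Between the sexes, 2181 genes rose in both, 1299 fell in both, 54 were called in opposite directions, 6001 were called in males alone and 680 in females alone. Because library kind and age partly coincide in females, their calls were also counted with old female 3 as the only old female, chosen after seeing the data: 1350 genes rose and 381 fell in place of 2530 and 1684. That fit has 1 old female, which is assumed to vary like the samples of the other groups, so its lower counts also reflect fewer samples. Called rises went from 20 to 18 for general macrophage markers, 31 to 19 for cell cycle genes, 17 to 3 for matrix genes and 14 to 1 for antigen presentation. Called falls went from 15 to 2 for major urinary protein genes, 33 to 8 for nuclear respiratory chain genes and 21 to 6 for xenobiotic metabolism. The female list medians in that fit were 2.55 for macrophage markers, in place of 2.53, and 0.47 for matrix genes, in place of 0.77. Directions depend on the scaling for genes with small changes. TMM factors were 0.82 to 0.92 in young samples, 1.05 to 1.08 in old females and 1.43 to 1.56 in old males, and scaling by the total count instead, an alternative chosen after seeing the data, moved the median change of all genes from −0.07 to 0.47 and the share of rises among the calls from 48.8% to 87.2%. In males alone that share went from 48.1% to 86.9%, and in females from 60.0% to 88.0%. Changes below are therefore read relative to the median of all genes, and a fall of less than about the size of that shift has no direction free of the scaling.

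Macrophage genes rose the most evenly of all the lists examined. All 20 general macrophage markers rose in each sex, with a median change of 4.65 in males and 2.53 in females beside −0.09 and 0.00 for all genes. Mpeg1, which encodes the pore-forming protein perforin-2 of phagocytes, was at 68.8, 63.8 and 55.0 CPM in young females against 326, 370 and 342 in old females, and at 39.3, 27.6 and 31.6 in young males against 999, 995 and 880 in old males. Old and young samples did not overlap in either sex, and Mpeg1 rose by 3.67 ± 0.19 (edgeR adjusted p = 1.9e-10). Lyz2, lysozyme of myeloid cells, rose by 3.92 ± 0.31, Ctss, a lysosomal protease used in antigen processing, by 3.81 ± 0.30, and Axl, a receptor for dying cells, by 3.40 ± 0.25. The summed level of the 20 markers was 543 to 721 CPM in young females, 3301 to 3671 in old females, 230 to 337 in young males and 6204 to 8440 in old males. The male change was above the female change for each of the 20, and for 16 of them the difference between the sexes was itself called, beside 9.90% of all genes.

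Markers of resident Kupffer cells and of recruited macrophages both rose. Of 14 Kupffer cell markers 11 rose and none fell, with a median of 2.57. Clec4f, a lectin found on Kupffer cells, was at 120, 121 and 93.6 CPM in young females, 413, 668 and 697 in old females, 59.1, 53.2 and 37.8 in young males and 1149, 583 and 527 in old males. Timd4, a receptor for phosphatidylserine on long-lived resident macrophages, rose by 3.44 ± 0.30, Vsig4, a complement receptor, by 4.15 ± 0.41, and Cd5l, a protein secreted by macrophages, by 2.72 ± 0.30. Among 20 markers of lipid-associated or recruited macrophages 19 rose. Trem2, the lipid-sensing receptor that defines such cells, went from 0.538, 0.878 and 0.725 CPM to 26.9, 34.2 and 30.4 in females and from 0.233, 0.298 and 0.229 to 64.6, 24.1 and 24.0 in males, a change of 6.30 ± 0.45. Old male 1 was the highest of the males for Trem2. Gpnmb rose by 4.98 ± 0.52, Lpl (lipoprotein lipase) by 3.44 ± 0.22, Lgals3 (galectin-3) by 3.48 ± 0.25 and Ccr2, the receptor that brings monocytes into tissue, by 3.81 ± 0.31. Marco, a scavenger receptor, was at 37.9 in old male 1 and at 1.20 and 1.02 in old males 2 and 3, against 3.66 to 6.00 in young males, so the old male samples fell on both sides of the young ones.

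**Figure D1:**
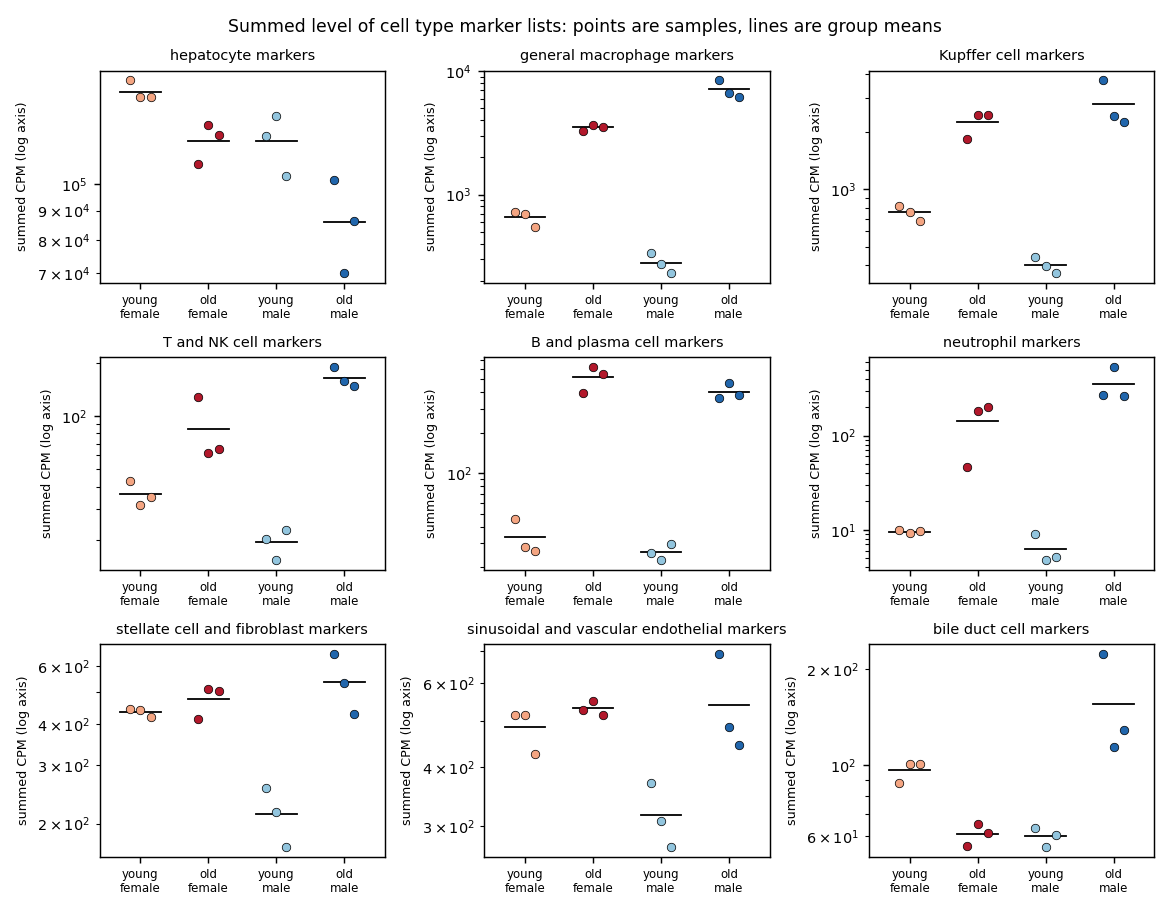
Summed level of 9 cell type marker lists in each of the 12 livers, in CPM on a log axis. Points are samples, lines are group means. General macrophage markers sit at 3301 to 8440 in the 6 old samples and at 230 to 721 in the 6 young samples, while hepatocyte markers go down from 103607 to 131589 in young males to 69918 to 101702 in old males.

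Lymphocyte and neutrophil genes were low in young liver and rose in old liver. Of 29 T and NK cell markers 27 rose and 1 fell, Zap70, with a median of 3.30. In females alone 24 rose, or 12 without old female 1 and 16 without young female 3. Their summed level was 128, 62.3 and 65.0 CPM in old females and 31.5 to 43.0 in young females. Cd3e, a chain of the T cell receptor complex, was at 0.396, 0.0703 and 0.0684 CPM in young females and 1.14, 0.461 and 0.426 in old females, against 0.0425 to 0.155 in young males and 3.14 to 3.63 in old males. Prf1, the perforin of killer cells, rose by 4.17 ± 0.47, and Il2rb, a receptor chain for IL-2 and IL-15, by 2.67 ± 0.28. Gzmk, a granzyme of memory-like T cells, and Pdcd1, which encodes the checkpoint receptor PD-1, had no counts in young males. They were at least 67.4-fold and at least 54.4-fold higher in old males, against a floor of 3 counts over the 3 young male samples. Of 25 B and plasma cell markers tested 21 rose and none fell. Ighm, the IgM heavy chain, rose from 5.90 to 9.10 CPM to 162, 356 and 312 in females and from 2.59 to 5.03 CPM to 130, 175 and 140 in males, and the change was nearly equal in the sexes (5.12 ± 0.54 and 5.18 ± 0.55). Igkc, the kappa light chain, rose by 4.50 ± 0.44, and Jchain, which joins secreted IgM and IgA, by 3.54 ± 0.48. Ms4a1, a surface protein of B cells, was low in old male 1 (1.43 CPM) and high in old males 2 and 3 (15.5 and 12.9).

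All 13 neutrophil markers rose, with a median of 6.11, and their summed level went from 4.76 to 9.86 CPM over the 6 young samples to 45.9 to 532 over the 6 old ones. The male median was 7.46, or 6.75 with genes absent from young males set at their lower bound. S100a8, a subunit of calprotectin, was at 0.913 to 1.90 CPM in young females, 7.89, 41.5 and 47.8 in old females, 0.128 to 0.621 in young males and 49.1, 112 and 54.8 in old males. Old female 1 was the lowest of the old females for S100a8, as it was for Retnlg and Mmp8. Genes of the granules that neutrophil precursors make were among the 10 largest rises of the comparison. Mpo (myeloperoxidase) had no counts in any of the 6 young livers and was at 4.23 to 6.09 CPM in old females and 4.61 to 27.3 in old males, at least 381-fold and at least 324-fold higher. Camp (cathelicidin) was at least 361-fold higher in old males, and Ngp, another granule protein, was at 0.116 CPM or less in each young liver and at 2.12 to 79.2 in each old one. Prtn3 (proteinase 3) was at 0.388 CPM or less in each young liver and at 1.74 to 20.6 in each old one. Chil3, a chitinase-like protein of activated macrophages and neutrophil precursors, rose by 7.52 ± 0.66. Erythroid genes, which could mark blood or blood formation in the tissue, were split: Slc4a1, Epb42 and Gata1 rose, Alas2 and Klf1 fell, and the globin genes Hba-a1 and Hbb-bs changed by 0.25 ± 0.46 and 0.16 ± 0.46, not called. The other genes among the 10 largest rises were Radx, Tnip3, AI606473, Ccr3 and the chemokine Cxcl13. Radx, a guard of replication forks, and Tnip3, an inhibitor of NF-kB signalling, had no counts in young males and were at least 153-fold and at least 191-fold higher in old males. Ccr3, an eosinophil receptor for chemokines, rose unevenly, to 5.49, 55.1 and 41.3 CPM in old males and to 13.1, 1.67 and 1.37 in old females.

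Chemokines, the signals that recruit these cells, rose with them. Of 34 chemokine and cytokine genes 29 rose and 4 fell, Ccl21a, Ccl27a, Cxcl11 and Cxcl12, with a median of 2.70. Under total count scaling 1 of the 34 fell, and 2 fell without old male 1, Cxcl11 and Cxcl12 no longer being called (edgeR adjusted p = 0.086 and 0.16). Cxcl13, which draws B cells, was at 4.08, 3.23 and 2.74 CPM in young females against 94.7, 916 and 839 in old females, and at 1.01, 1.15 and 1.10 in young males against 958, 782 and 735 in old males. The change was 8.55 ± 0.77 (edgeR adjusted p = 2.6e-08), the largest of the list, and old female 1 was the lowest of the old females. The reverse held for Cxcl9, an attractant of T cells induced by interferon gamma, which was at 250 CPM in old female 1 and at 15.9 and 14.8 in old females 2 and 3, where young females were at 8.53 to 17.0. Ccl2, the ligand of Ccr2, rose by 5.35 ± 0.69, Ccl8 by 6.25 ± 0.53, Ccl5 by 4.65 ± 0.54 and Cxcl16 by 2.87 ± 0.25. Of the inflammatory cytokines, Tnf rose by 5.10 ± 0.54, Il1b by 2.80 ± 0.51 and Il6, at 1.30 CPM or less in every sample, by 2.84 ± 0.60. Tgfb1, the cytokine that drives scar formation, rose by 2.60 ± 0.25. Antigen presentation genes rose in 19 of 23 cases and fell in none. Cd74, the chaperone of MHC class II, was at 39.5 to 79.4 CPM in young females, 921, 295 and 316 in old females, 24.8 to 42.7 in young males and 369, 982 and 898 in old males. H2-Aa and H2-DMb1, other class II genes, rose by 3.90 ± 0.49 and 3.92 ± 0.37, while the class I light chain B2m changed by 0.22 ± 0.15, not called.

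Interferon-stimulated genes rose in males more than in females. Of 34 genes 28 rose in males and 11 in females, none fell in either sex, and the male change was above the female change for 33 of the 34, called as a difference for 17. Oas3, a sensor of double-stranded RNA, was at 0.366 to 0.738 CPM in young males and 11.5, 23.8 and 19.8 in old males, against 0.821 to 1.37 in young females and 3.73, 5.87 and 5.58 in old females. Oas1a and Oas1g, whose near-identical copies may share reads, rose by 3.17 ± 0.23 and 3.52 ± 0.28. Irf7, the transcription factor that amplifies interferon production, rose by 2.07 ± 0.22, and Gbp2, a GTPase induced by interferon gamma, by 3.32 ± 0.41. For Isg15 and Ifit1 the groups did not overlap in males (changes of 2.22 ± 0.52 and 2.54 ± 0.57), and in females they overlapped (0.14 ± 0.50 and 0.22 ± 0.52, not called). Without old male 1, the rises in males numbered 33 of 34. The interferon-stimulated response element is the site through which type I interferon induces its target genes. Its core, searched as TTTC, any 2 bases and TTTC again on both strands in the 250 bases before the start site, was present for 14 of the 23 members with a RefSeq promoter (60.9%) and for 3.04% of 27025 promoters. The stretches around it are shown for 4 risen members because they carry the element that names the group. They come from RefSeq on build GRCm38.p6 in the direction of transcription, with the element in capitals on whichever strand it lies; the 2 overlapping elements of Oas1a and Oas1g run together. Oas1a lies at chr5:120907526-120907569 (minus strand), Oas1g at chr5:120887614-120887655 (minus), Oas3 at chr5:120777695-120777764 (minus) and Gbp2 at chr3:142620574-142620643 (plus).
Oas1a: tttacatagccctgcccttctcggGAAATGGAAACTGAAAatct
Oas1g: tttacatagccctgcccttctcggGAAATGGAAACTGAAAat
Oas3: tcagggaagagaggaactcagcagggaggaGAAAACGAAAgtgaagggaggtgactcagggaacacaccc
Gbp2: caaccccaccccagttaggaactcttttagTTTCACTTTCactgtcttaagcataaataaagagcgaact
A match is a description of the letters in these windows and was not tested as a binding site.

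Cell cycle genes rose in both sexes. Of 37 genes 35 rose and 1, Tk1, fell, with a median of 3.62 in males and 1.99 in females. Mki67, the Ki-67 proliferation marker, was at 3.28, 3.34 and 2.53 CPM in young females against 23.4, 28.03 and 26.1 in old females, and at 0.854, 2.89 and 1.01 in young males against 54.6, 68.6 and 47.8 in old males. No old sample overlapped a young one, and the change was 4.12 ± 0.40 (edgeR adjusted p = 5.3e-08). Top2a, the topoisomerase of dividing cells, rose by 4.58 ± 0.42, Kif11, a motor of the mitotic spindle, by 3.40 ± 0.23 and Cdk1, the mitotic kinase, by 3.09 ± 0.29. Of the replication genes, Mcm3 and Mcm4, subunits of the replicative helicase, rose by 2.46 ± 0.15 and 2.05 ± 0.14, and Rrm1, a subunit of ribonucleotide reductase, by 1.54 ± 0.12. Pcna, the sliding clamp of DNA polymerase, was at 20.8 to 21.0 CPM in young males and 72.1 to 82.6 in old males, a rise of 1.89 ± 0.14, while in females it changed by 0.21 ± 0.13, not called, and the difference between the sexes was 1.68 ± 0.19. Which cells divide cannot be read from bulk tissue; macrophage and lymphocyte markers rose in the same samples, and their part in these changes was not tested. Promoters of late cell cycle genes often hold CCAAT boxes and the cell cycle homology region. Searched on both strands in the same windows, CCAAT was present for 22 of 29 members with a promoter (75.9%) and 34.5% of all promoters, and TTTGAA, the core of the homology region, for 9 of 29 (31%) and 16.3%. The 130 bases before the start are shown for 4 members because they hold these letters, in capitals on either strand: Kif11 at chr19:37376252-37376381 (plus), Top2a at chr11:99024190-99024319 (minus), Cdk1 at chr10:69352913-69353042 (minus) and Mki67 at chr7:135716380-135716509 (minus).
Kif11: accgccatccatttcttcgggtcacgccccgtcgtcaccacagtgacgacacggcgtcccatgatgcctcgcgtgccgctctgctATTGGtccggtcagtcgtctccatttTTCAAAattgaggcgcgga
Top2a: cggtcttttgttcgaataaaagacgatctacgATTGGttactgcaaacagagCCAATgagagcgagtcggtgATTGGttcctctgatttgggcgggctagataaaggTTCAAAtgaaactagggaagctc
Cdk1: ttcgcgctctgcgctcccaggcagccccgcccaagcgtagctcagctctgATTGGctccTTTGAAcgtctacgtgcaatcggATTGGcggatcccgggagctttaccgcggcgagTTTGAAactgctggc
Mki67: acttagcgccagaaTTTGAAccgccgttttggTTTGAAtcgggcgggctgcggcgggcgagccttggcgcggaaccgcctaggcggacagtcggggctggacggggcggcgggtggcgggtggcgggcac
In these stretches Mki67 shows the homology core but no CCAAT, and its CCAAT match lies elsewhere in the 250 bases.

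Genes of the p53 response rose as well. Of 29 p53 targets and senescence-associated genes 22 rose and 1 fell, Ei24, with a median of 0.95. Cdkn1a, which encodes the cell cycle inhibitor p21, was at 1.71, 1.77 and 7.20 CPM in young females, 15.0, 28.7 and 27.5 in old females, 1.48, 4.64 and 1.01 in young males and 54.1, 34.4 and 34.2 in old males. Its change was 3.42 ± 0.46 (edgeR adjusted p = 3.4e-06). Phlda3 rose by 2.14 ± 0.21, Bax, a trigger of cell death, by 0.78 ± 0.10, Glb1, the lysosomal beta-galactosidase, by 1.39 ± 0.13 and Mmp12, the macrophage elastase, by 4.41 ± 0.37. Cdkn2a, the locus of p16 and a widely used marker of senescence, was at 0.642 CPM or less in every sample and its groups overlapped (0.54 ± 0.73, not called). Among 20 tested genes of fetal liver and liver tumours 13 rose and none fell. Lcn2, an iron-binding protein induced in damaged liver, was at 5.68 to 9.004 CPM in young females, 198, 467 and 406 in old females, 35.5, 7.53 and 5.40 in young males and 1399, 342 and 431 in old males, where old male 1 was the highest. Pkm, a glycolytic enzyme that hepatocytes hardly express, rose by 3.28 ± 0.26. Afp (alpha-fetoprotein) rose by 2.07 ± 0.45 at levels that reached 4.11 CPM, in old male 1. H19, an imprinted RNA of fetal liver, rose from 0.0458 to 0.170 CPM to 11.5, 3.85 and 2.69 in males, and in females changed by 1.82 ± 0.78, not called. Golm1 rose by 1.69 ± 0.23 and was again highest in old male 1, at 35.8 CPM against 14.3 and 13.6.

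**Figure D2:**
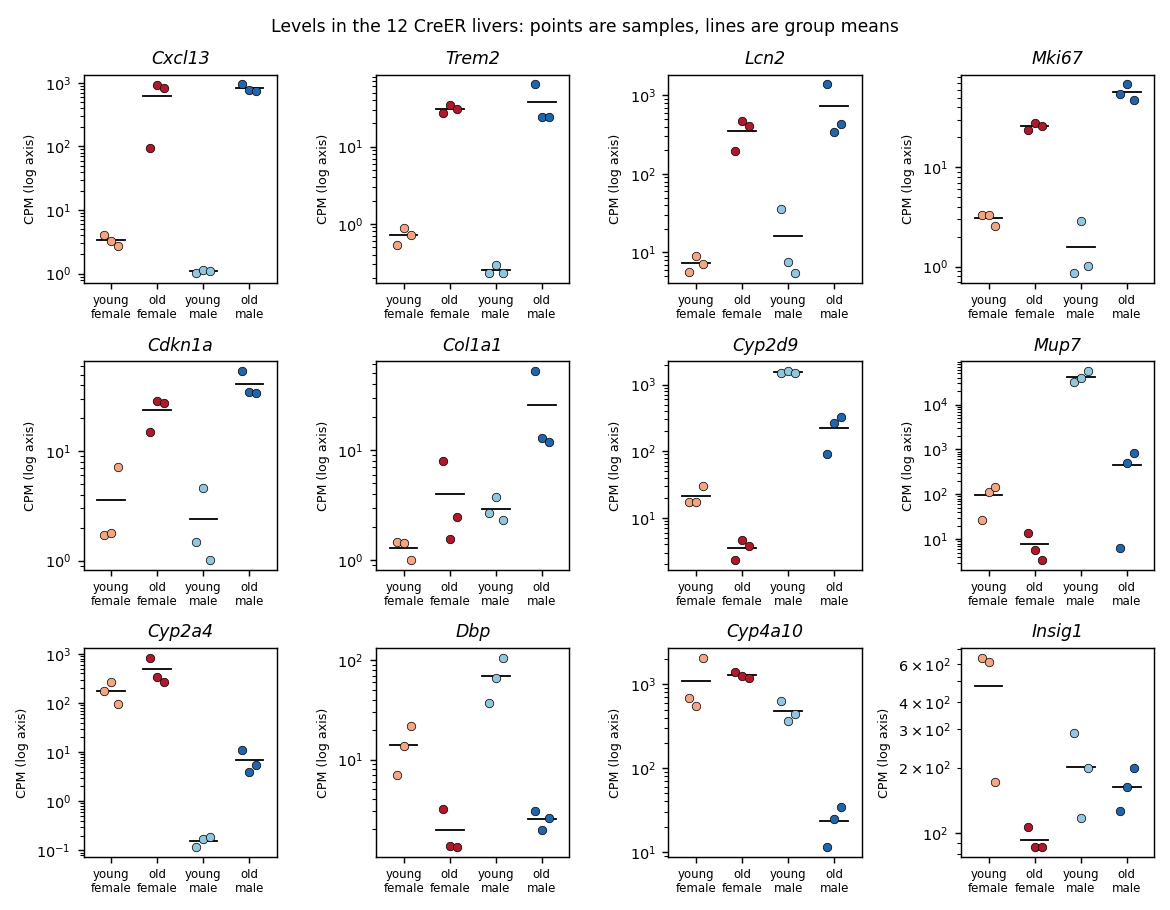
Levels of 12 genes in each of the 12 livers, in CPM on log axes that differ between panels. Points are samples, lines are group means. Cxcl13, Trem2, Mki67 and Cdkn1a are higher in every old sample than in any young one of the same sex, Mup7, Cyp2d9 and Dbp are lower, Cyp4a10 is lower in old males alone and Insig1 in old females alone.

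Matrix genes rose, more in males than in females. Of 35 extracellular matrix and fibrosis genes 33 rose in males and 17 in females, and the sex difference was called for 18. Col1a1, a chain of the main scar collagen, was at 2.68, 3.79 and 2.33 CPM in young males and 52.5, 13.0 and 11.9 in old males, against 1.46, 1.44 and 0.999 in young females and 7.89, 1.55 and 2.45 in old females. Old male 1 and old female 1 were the highest of their groups, and the change was 2.37 ± 0.42. Col3a1 rose by 2.12 ± 0.40, Dcn (decorin) by 1.22 ± 0.12, Timp2, an inhibitor of matrix proteases, by 1.54 ± 0.16, Mmp14, a membrane-bound collagenase, by 1.11 ± 0.12 and Vim (vimentin) by 2.61 ± 0.23. Actb (beta-actin) and Ctsb (the lysosomal protease cathepsin B), among the 5 most abundant genes that rose, changed by 1.44 ± 0.17 and 0.93 ± 0.13. Without old male 1, 32 of the 35 still rose in males, and the count of called sex differences went to 11. In females 6 rose without old female 1 and 10 without young female 3. Markers of stellate cells and fibroblasts rose in 16 of 20 cases in males and 4 of 20 in females (2 without old female 1), and their summed level was 170 to 256 CPM in young males and 429 to 652 in old males, 421 to 446 in young females and 415 to 510 in old females. Acta2, the smooth muscle actin of activated stellate cells, changed in opposite directions: it rose from 2.17 to 4.93 CPM to 32.6, 10.7 and 9.02 in males (2.38 ± 0.50) and fell from 3.36 to 8.32 CPM to 1.57 to 2.47 in females (a change of −1.38 ± 0.49). The female fall of Acta2 was not called without old female 1, nor without young female 3. Genes of hyaluronan, the polymer on which the series turns, were also read. Of 21 genes 14 passed the filter, and the synthases Has1, Has2 and Has3 did not. Of the 14, 7 rose, 4 fell and 3 were not called. Over all genes 27.0% rose and 28.3% fell, so the count of falls is near the background. In males 7 rose and 5 fell, and in females 4 rose and 1 fell. Cd44, the main hyaluronan receptor, rose by 3.14 ± 0.28, Lyve1, the receptor of sinusoidal and lymphatic endothelium, by 3.30 ± 0.44, Vcan (versican) by 4.96 ± 0.61 and Hmmr by 2.94 ± 0.37. The hyaluronidase Hyal1 fell by 1.21 on the log2 scale over both sexes, with levels of 49.4 to 60.5 CPM in young males and 10.9 to 13.4 in old males. Its change was −2.13 in males and −0.29 in females, and the sex difference of −1.84 ± 0.32 was called.

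The largest falls were those of the major urinary protein genes. Their summed share of all counts was 10.99 to 21.3% in young males and 0.17 to 1.75% in old males, and 1.94 to 3.83% in young females and 0.34 to 0.59% in old females. Of 20 Mup genes 17 fell and none rose with both sexes together, with a median of −4.94. Mup7 was at 31180, 38688 and 56296 CPM in young males and 6.32, 487 and 848 in old males, and at 27.2, 112 and 146 in young females and 13.7, 5.80 and 3.41 in old females. Mup3 went from 9427 to 11324 CPM to 139, 816 and 1147 in males and from 2246 to 3106 CPM to 226, 230 and 233 in females, a change of −3.70 ± 0.61. Old male 1 was the lowest sample for Mup7 and Mup3 among males, and Mup20, the darcin pheromone, was at 745 CPM there against 3850 and 3994 in old males 2 and 3. Mup22 and Mup15 had no counts in old males, and at least 274444-fold and 261576-fold are the bounds on their falls from young males. For Mup22 the young males ran from 163 to 16031 CPM, and its male fall was not called without old male 1 (edgeR adjusted p = 0.066). Mup14 had no counts in old females, at least 355-fold lower than in young ones. Mup1, Mup9, Mup11, Mup12 and Mup17 were also among the 10 largest falls, with changes from −5.14 for Mup9 to −9.02 for Mup17. Values of single Mup genes are uncertain, since the copies are nearly identical and read assignment can move counts between them. Mup22 was at 0 in old females 1 and 2 and at 2231 CPM in old female 3, and Mup10 at 2568 and 1787 CPM in old females 1 and 2 and at 0.809 in old female 3, a split that runs with the kind of library. The summed share does not depend on that assignment. A TATA box, TATATAA on either strand, was present in the 250 bases before the start of 10 of the 13 Mup genes with a RefSeq promoter (76.9%) and of 3.26% of all promoters. The 49 bases around it are shown for 4 genes because they make the likeness of the copies visible: they are the same in Mup15, Mup17 and Mup19 and agree at 48 of 49 positions in Mup9. The box is in capitals, and all 4 lie on the minus strand, Mup15 at chr4:61439705-61439753, Mup17 at chr4:61595833-61595881, Mup19 at chr4:61782231-61782279 and Mup9 at chr4:60421959-60422007.
Mup15: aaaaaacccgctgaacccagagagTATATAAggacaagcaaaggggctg
Mup17: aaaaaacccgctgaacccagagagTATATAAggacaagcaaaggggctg
Mup19: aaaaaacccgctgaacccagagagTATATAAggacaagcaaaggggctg
Mup9: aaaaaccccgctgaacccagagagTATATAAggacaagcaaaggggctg
Mup19 fell by 5.09 on the log2 scale and Mup9 by 5.14.

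Other genes of the male pattern fell. Of 20 male-biased liver genes 17 fell and none rose in males, with a median of −2.75. Cyp2d9, a steroid hydroxylase, was at 1519, 1611 and 1480 CPM in young males and 89.5, 268 and 323 in old males. Slco1a1, an organic anion transporter, went from 374, 383 and 304 CPM to 6.68, 24.7 and 25.1 in males, and in females from 10.7 to 17.9 CPM to 0.0238 or less. Hsd3b5, a steroid-reducing enzyme of male liver, was at 257 to 391 CPM in young males and at 0.0552, 0.998 and 1.14 in old males, and Cyp4a12a, a fatty acid hydroxylase, at 566 to 599 CPM and at 0.855, 113 and 155. For each of these, old male 1 was the lowest of the males. Of 27 female-biased genes 8 rose and 2 fell in males, where 26.6% of all genes rose, so the count of rises is near the background. Cyp2a4, a female-biased steroid hydroxylase, was at 0.116 to 0.183 CPM in young males and 11.2, 3.88 and 5.59 in old males, while young females were at 94.6 to 270 and old females at 835, 343 and 268. Cyp3a41a rose to 9.90, 1.23 and 1.17 CPM in old males from at most 0.128, and Slc22a27 to 7.81, 3.02 and 3.19 from at most 0.349. Cyp2c40, also counted as female-biased, fell in both sexes (−3.03 ± 0.30). In females the list had a median of −0.16, with 5 genes up (2 without old female 1, 3 without young female 3) and 3 down, and Cyp2b13 fell there from 342 to 398 CPM to 16.5, 30.7 and 34.5. Without old male 1, 5 female-biased genes were called up in males.

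Genes that transmit growth hormone and insulin signals fell in part. Of 23 genes 12 fell and 3 rose, Jak2, Igfbp1 and Igfbp3, with a median of −0.60; under total count scaling 6 fell and 4 rose, with a median of −0.06. Ghr, the growth hormone receptor, was at 420 to 547 CPM in young males and 75.2, 162 and 198 in old males, and in females the groups overlapped because old female 1, at 640 CPM, was above all young females. Igf1, the growth factor that the liver secretes under growth hormone, fell in both sexes, by 0.68 in males and 0.58 in females on the log2 scale. Under total count scaling the changes of Igf1 and Insr over both sexes were −0.09 and −0.06, not called. Igfals, which carries IGF-1 in plasma, changed by −1.67 ± 0.28, Irs1, an insulin receptor substrate, by −1.41 ± 0.17 and Insr, the insulin receptor, by −0.60 ± 0.08. Gcgr, the glucagon receptor, changed by −2.10 ± 0.15 in males and −0.46 ± 0.14 in females, and the sex difference of −1.64 ± 0.20 was called. Igfbp1, an IGF-binding protein that rises in fasting and injury, went from 5.18 to 8.85 CPM to 87.1 to 103 in females. The transducer Stat5b changed by −0.28 ± 0.12 and the repressor Bcl6 by −0.41 ± 0.31, neither called.

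**Figure D3:**
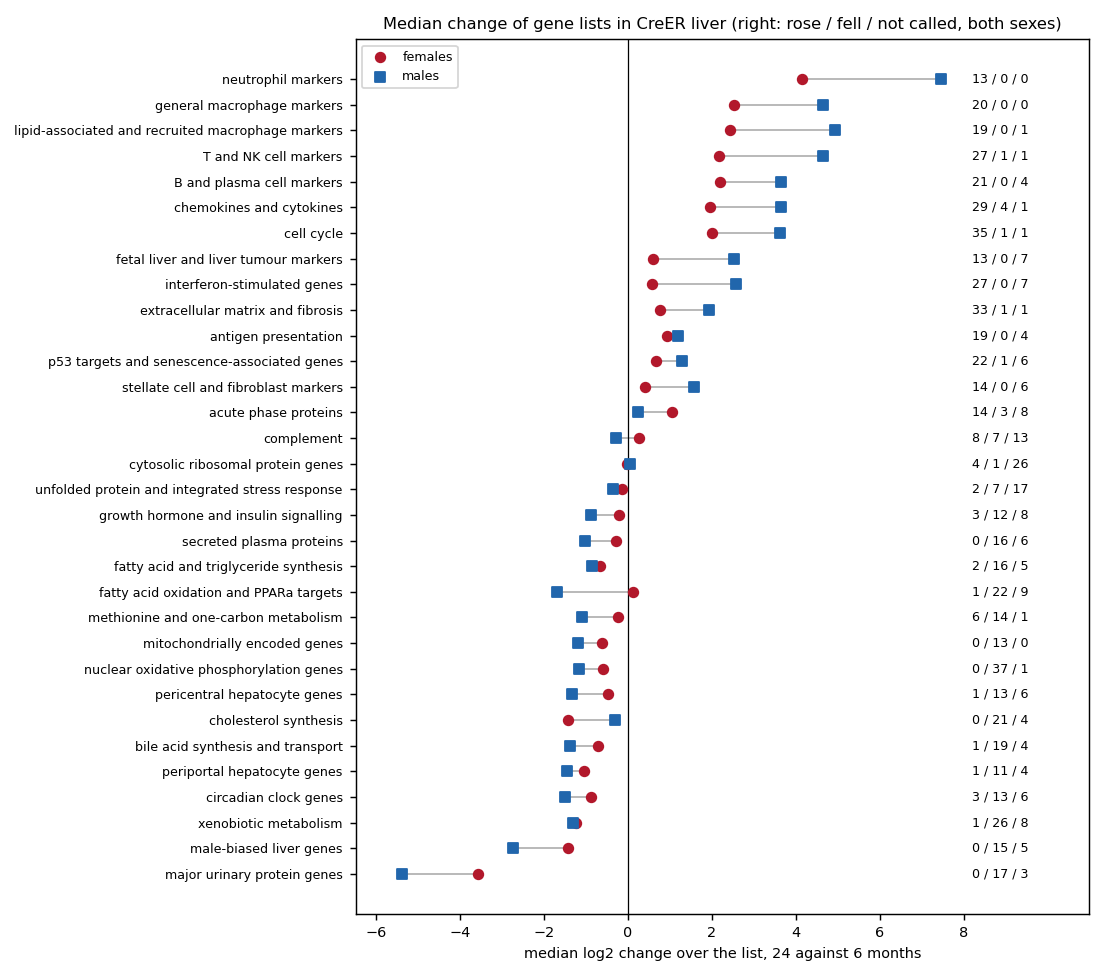
Median change with age of 32 gene lists in females (circles) and males (squares), on the log2 scale, 24 against 6 months; the counts on the right are genes that rose, fell and were not called with both sexes together. Neutrophil and macrophage markers lie at the top and major urinary protein genes at the bottom, and fatty acid oxidation genes have a male median of −1.69 beside a female median of 0.11.

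Detoxification and bile acid genes fell in both sexes. Of 35 xenobiotic metabolism genes 26 fell and 1, Gsta1, rose, with a median of −1.32 in males and −1.25 in females. Ces2a, a carboxylesterase, was at 363, 416 and 317 CPM in young females, 99.1, 116 and 122 in old females, 431, 365 and 350 in young males and 38.8, 89.9 and 107 in old males. Its change was −1.99 ± 0.18 (edgeR adjusted p = 3.1e-08), and no old sample overlapped a young one. Nr1i3, the drug-sensing receptor CAR, changed by −1.46 ± 0.16, Ugt2b5 by −1.67 ± 0.18 and Gstt1 by −1.37 ± 0.16. Cyp3a11, a major drug-metabolising P450, was at 114 CPM in old female 1 and at 1525 and 1553 in old females 2 and 3. Of 24 genes of bile acid synthesis and transport 19 fell and 1, the export pump Abcc4, rose. Slc10a1, which takes bile acids up from blood, changed by −1.37 ± 0.16, Abcb11, which exports them into bile, by −1.39 ± 0.19, and Slc27a5, which activates them, by −1.19 ± 0.15. Cyp7a1, the rate-limiting enzyme of bile acid synthesis, had overlapping groups in both sexes (−0.48 ± 0.44, not called). Cyp8b1, which sets the cholic acid share, fell from 191 to 281 CPM to 12.6, 38.0 and 45.2 in males, and was at 74.3 to 126 in young and 102 to 271 in old females.

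Genes of both liver zones fell. Of 16 periportal genes 11 fell, with a median of −1.18, and of 20 pericentral genes 13 fell and 6 were not called, with a median of −0.95. Periportal falls numbered 13 in males and 8 in females. Pericentral falls numbered 17 in males (median −1.34) and 5 in females (median −0.49). Under total count scaling 9 fell in each list over both sexes, and in females 2 pericentral genes fell and 2 rose. Periportal Cyp2f2 was at 376, 426 and 378 CPM in young females, 101, 113 and 97.0 in old females, 1521, 1692 and 1441 in young males and 204, 426 and 585 in old males. Etnppl, an enzyme of phospholipid breakdown, changed by −2.76 ± 0.25 and Otc, of the urea cycle, by −1.57 ± 0.18. The single periportal gene that rose was Ctsc, a protease that leukocytes also express (2.53 ± 0.30). Pericentral Cyp2e1, which oxidises ethanol, was at 5614 to 6392 CPM in young males and 263, 1141 and 1403 in old males, and at 6235 to 9159 in young and 2566 to 3234 in old females. Cyp1a2 changed by −1.86 ± 0.26 and Notum, a Wnt inhibitor of the central zone, by −1.63 ± 0.20. Glul, glutamine synthetase of the innermost pericentral cells, differed between the sexes: it fell from 514 to 798 CPM to 239 to 324 in males (−1.17 ± 0.18), and was at 775 to 815 in young and 904 to 1301 in old females (0.47 ± 0.18, not called).

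Secreted plasma proteins fell by less. Of 22 genes 16 fell and none rose, with a median of −0.67, but under total count scaling 6 fell and 3 rose. Alb (albumin) was at 44110 to 65088 CPM in young males and 34646 to 53516 in old males, which overlap, and its change over both sexes was −0.28 ± 0.30, not called. Ttr (transthyretin) changed by −1.39 ± 0.18, Apoa2 by −1.54 ± 0.18 and Serpina1c, an antitrypsin, by −1.64 ± 0.18. Apoe, among the 5 most abundant falling genes, changed by −1.05 ± 0.21 in males and −0.20 ± 0.20 in females, the latter not called. The sum of 16 hepatocyte markers was 103607 to 131589 CPM in young males and 69918 to 101702 in old males, and 142040 to 152210 in young females and 108714 to 127188 in old females. As a share of all counts, before scaling, the same markers did not go down in males, at 8.77 to 11.5% in young and 10.9 to 15.4% in old samples, so the lower sum is a statement relative to the other genes. The part of hepatocyte number in the falls of hepatocyte genes was not tested.

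Cholesterol synthesis genes fell in females, and in males most were not called. In females 22 of 25 fell, with a median of −1.44, and in males 5 of 25, with a median of −0.30; the male change was above the female change for 20 of the 25, called as a difference for 4, beside 9.90% of all genes. Insig1, the sterol sensor that holds SREBP-2 back and is itself its target, was at 640, 611 and 171 CPM in young females and 107, 86.9 and 86.4 in old females, against 288, 118 and 199 in young males and 127, 163 and 200 in old males. Fdps went from 208, 168 and 24.3 CPM to 20.03 to 28.4 in females, where young female 3 was already at the level of the old samples. Without young female 3, 23 of the 25 fell in females, and with old female 3 as the only old female, its spread taken from the other groups, the median was −1.56 and 4 fell. Stard4, a cholesterol carrier, fell in both sexes (−1.44 ± 0.17). Fatty acid and triglyceride synthesis genes fell in 16 of 23 cases and rose in 2, Scd2 and Pnpla3. Dgat2, the last enzyme of triglyceride synthesis, was at 284 to 333 CPM in young males and 80.6 to 107 in old males, and at 309 to 407 in young and 169 to 221 in old females. Mlxipl, the sugar-sensing factor ChREBP, changed by −2.98 ± 0.31 in males and −1.10 ± 0.29 in females. Scd1, the main desaturase, changed by −0.07 ± 0.39, not called. Under total count scaling 19 of the 25 cholesterol genes fell in females, and in males 2 fell and 4 rose. Over both sexes 7 of the 25 fell under that scaling in place of 21, and 6 of the 23 fatty acid genes in place of 16.

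Fatty acid oxidation genes fell in males and not in females. Of 32 PPARa targets and oxidation genes 28 fell and 1, Pdk4, rose in males (median −1.69), whereas 4 fell and 2 rose in females (median 0.11). The male change was below the female change for 31 of the 32, called as a difference for 26, beside 11.2% of all genes. Cyp4a10, a PPARa target that hydroxylates fatty acids, was at 627, 369 and 447 CPM in young males and 11.4, 24.3 and 33.9 in old males, and at 679, 552 and 2082 in young females and 1411, 1252 and 1186 in old females. Young and old samples were apart in males and overlapped in females. Its male change was −4.37 ± 0.60, its female change 0.22 ± 0.52, not called, and the difference −4.59 ± 0.77 (edgeR adjusted p = 0.00069). Ppara itself changed by −2.36 ± 0.25 in males and −0.74 ± 0.23 in females, and Creb3l3, its partner in the fasting response, by −2.51 ± 0.17 and −0.15 ± 0.16, the latter not called. Cpt2 and Acads, of the mitochondrial pathway, changed by −2.04 ± 0.19 and −1.89 ± 0.15 in males. Young female 3 was high for Cyp4a10 and Acot1 (96.4 CPM against 19.6 and 15.5), and without it 7 of these genes rose and none fell in females. The male count of falls was 26 without old male 1. Under total count scaling 16 fell and 1 rose in males (median −0.93), while none fell and 5 rose in females (median 0.43). Of 17 lipid droplet genes 10 fell and 3 rose in males; Mgll, a monoglyceride lipase, fell there from 96.3 to 132 CPM to 13.4 to 19.9, while Cd36, a fatty acid transporter, rose from 12.3 to 41.9 CPM to 155 to 216.

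**Figure D4:**
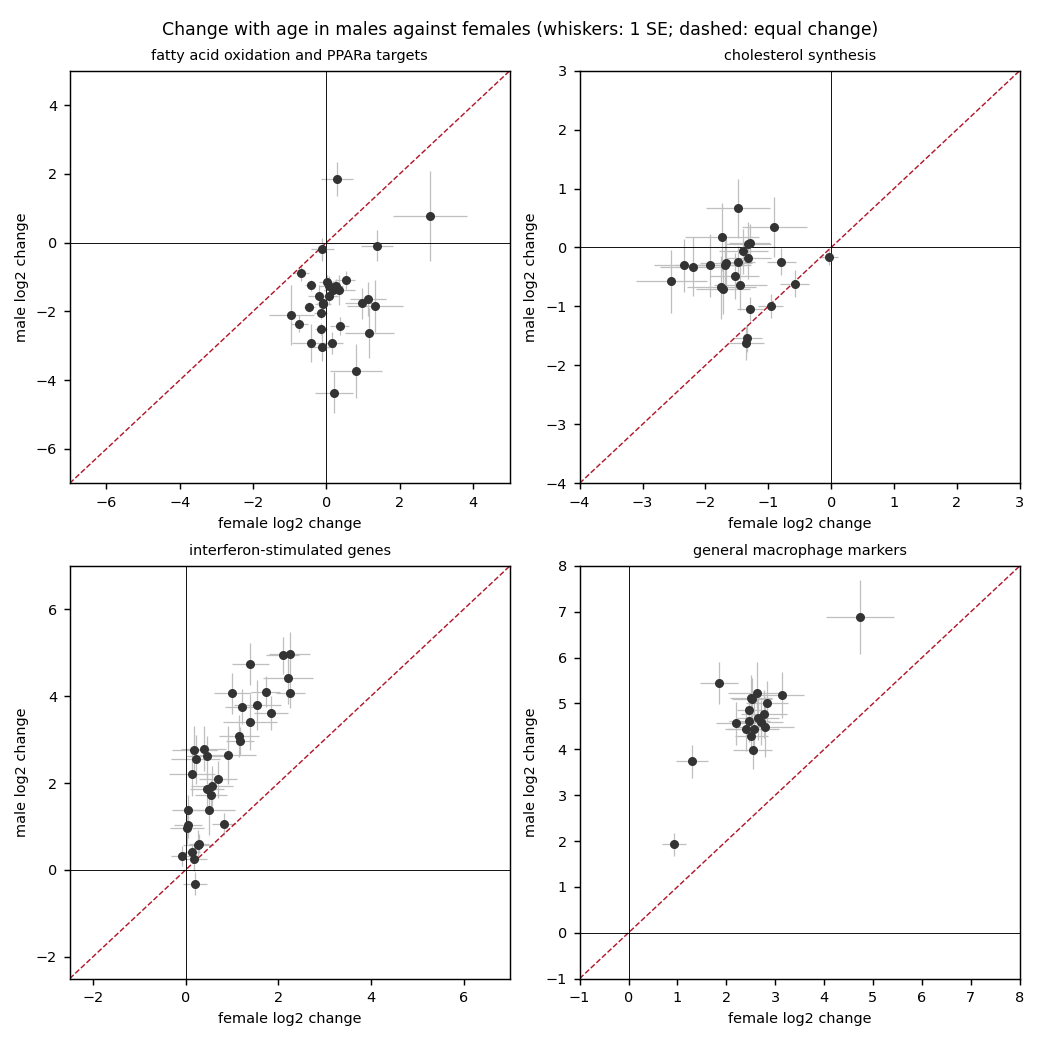
Change with age in males (vertical axis) against females (horizontal axis), log2, for the genes of 4 lists; each point is a gene, whiskers are 1 standard error and the dashed line marks equal change. Of 32 fatty acid oxidation genes 31 lie below the line, whereas 20 of 25 cholesterol synthesis genes, 33 of 34 interferon-stimulated genes and all 20 macrophage markers lie above it.

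Respiratory chain genes fell together. Of 38 nuclear genes of oxidative phosphorylation 37 fell and none rose, with a median of −1.16 in males and −0.59 in females, and 30 fell and 1 rose under total count scaling. Ndufv1, a subunit of complex I, was at 154, 149 and 148 CPM in young females, 90.6, 92.9 and 88.5 in old females, 141, 132 and 138 in young males and 48.6, 51.3 and 58.2 in old males. The groups did not overlap in either sex, and its change was −1.05 ± 0.08 (edgeR adjusted p = 5.3e-09). Uqcrc1, of complex III, changed by −1.09 ± 0.09 and Ndufb9 by −1.15 ± 0.10. All 13 genes encoded by mitochondrial DNA fell over both sexes, with a median of −0.86, but 4 did under total count scaling. In males alone 11 of the 13 fell, and in females 3, or 1 without young female 3. mt-Co1 went from 34014 to 38168 CPM to 14170 to 19035 in males and from 25617 to 29147 CPM to 15191 to 17164 in females, and mt-Co3 changed by −0.98 ± 0.26. In females alone neither was called (−0.74 ± 0.31 for mt-Co1 and −0.65 ± 0.36 for mt-Co3). mt-Rnr2, a ribosomal RNA of mitochondria, changed by −1.14 ± 0.25 over both sexes. The change was −1.73 ± 0.36 in males and −0.54 ± 0.35 in females, the latter not called. It was the most abundant of the genes that fell through its female levels, with means of 62617 CPM in young and 42987 in old females. In males the means were 986 CPM in young and 297 in old samples. The mitochondrial share of all counts was 10.98 to 11.3% in young males and 7.32 to 9.31% in old males, 9.58 to 13.4% in young females and 8.44 to 9.75% in old females.

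Genes of amino acid and sugar metabolism went both ways. Of 21 methionine and one-carbon genes 14 fell and 6 rose. Gnmt, the most abundant methyl sink of hepatocytes, changed by −1.44 ± 0.20, Sardh by −1.57 ± 0.17 and Ahcy by −1.45 ± 0.20. The rises were led by the serine synthesis enzymes Psat1 (3.90 ± 0.28) and Phgdh (3.38 ± 0.47) and by mitochondrial Mthfd2 (3.19 ± 0.28). Psat1 was at 0.199 to 0.596 CPM in all 6 young livers, 1.85 to 2.43 in old females and 13.3 to 20.3 in old males. Of 27 genes of glycolysis and gluconeogenesis 9 rose and 11 fell, with a median of −0.31 that turns to 0.23 under total count scaling. Hk2, the hexokinase of muscle and proliferating cells, rose by 3.90 ± 0.37 and Pfkp, a phosphofructokinase, by 2.80 ± 0.26.

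Acute phase protein genes mostly rose in females. In females 18 of 25 rose and none fell, and in males 9 rose and 2 fell, while under total count scaling 20 rose in females and 17 in males. The sex difference was called for 4 of the 25, 3 of them lower in males. Over all genes 9.90% were higher and 11.2% lower in males, so these counts do not stand out from the background. Without young female 3, 10 rose in females, and without old male 1, 6 rose in males, with a male median of 0.14. With all samples 26.6% of all genes rose in males. Saa1, serum amyloid A, was at 24.99, 17.5 and 20.4 CPM in young females and 293, 313 and 292 in old females, whereas young males were at 1154, 232 and 125 and old males at 218, 341 and 513, which overlap. Young male 1 was the highest of the males for Saa1 and for Saa2. Saa3, which macrophages also make, rose by 2.49 ± 0.38, Orm2, an acid glycoprotein, by 3.602 ± 0.65, Hpx (hemopexin) by 0.99 ± 0.23, Cp (ceruloplasmin) by 1.04 ± 0.27 and Il1rn, the natural blocker of the IL-1 receptor, by 3.17 ± 0.41. Saa4, Crp and Hamp fell with both sexes together, but none of the list fell under total count scaling, and Saa4 and Crp were not called without old male 1 (edgeR adjusted p = 0.072 and 0.14). Hamp, which encodes the iron hormone hepcidin, changed by −1.004 ± 0.34. Complement genes went both ways. The C1q chains, made by macrophages, rose (C1qb by 3.66 ± 0.32), as did the receptors C3ar1 (4.34 ± 0.36) and C5ar1 (4.55 ± 0.38), while C3, the central component secreted by hepatocytes, changed by 0.26 ± 0.15, not called, and C8b, of the membrane attack complex, by −1.02 ± 0.33, the latter not called without old male 1 (edgeR adjusted p = 0.059). The list median was −0.04, and 0.50 under total count scaling.

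Clock genes fell in both sexes. Of 22 clock genes 13 fell and 3 rose, with a median of −1.27, and 12 fell and 3 rose under total count scaling. Dbp, a clock output factor, was at 6.95, 13.7 and 21.8 CPM in young females and 3.21, 1.33 and 1.31 in old females, and at 37.5, 66.0 and 106 in young males and 3.03, 1.97 and 2.55 in old males. The groups did not overlap, and the change was −3.84 ± 0.68 (edgeR adjusted p = 7.5e-05). Nr1d1, the repressor REV-ERBa, changed by −2.14 ± 0.36, Per2 by −1.79 ± 0.24 and Hlf by −1.63 ± 0.14, while Arntl, the activator BMAL1, and its partner Npas2 rose by 1.28 ± 0.34 and 1.66 ± 0.58. Per1 overlapped between the ages (0.29 ± 0.39, not called). Arntl peaks opposite to Dbp and Nr1d1 in the daily cycle. The hour of collection is not in the labels, and its part was not tested.

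Stress genes moved in both directions. Of 26 NRF2 and glutathione genes 9 rose and 11 fell, with a median of −0.07 that is 0.46 under total count scaling. Hmox1 (heme oxygenase) rose by 2.99 ± 0.32 and was at 341 CPM in old male 1 against 105 and 94.7 in old males 2 and 3. G6pdx, the entry enzyme of the pentose phosphate pathway, was at 1.97 to 4.77 CPM in all 6 young samples, 22.2 to 27.1 in old females and 60.1 to 70.9 in old males (3.54 ± 0.29), while Sod1 and Gclc changed by −1.04 ± 0.13 and −0.92 ± 0.20. Of 26 genes that respond to unfolded proteins or to the integrated stress pathway 2 rose and 7 fell, with a median of −0.33 that is 0.21 under total count scaling. Over all genes 27.0% rose and 28.3% fell, so the count of falls in this list is near the background. Atf3 rose by 2.28 ± 0.29, Herpud1 changed by −0.92 ± 0.24 and Trib3 by −1.16 ± 0.30. Of 28 immediate early and heat shock genes 12 rose and 5 fell over both sexes. The falls were all of chaperones, Hsph1, Hspb1, Dnaja1, Hspe1 and Hspd1, and the rises included Klf6 (2.46 ± 0.22) and Ier3 (3.30 ± 0.47). In males alone 12 of the list rose and 8 fell, and in females 11 rose and none fell. Under total count scaling 15 rose and 1 fell over both sexes. Ribosomal protein genes hardly moved under TMM scaling, with 4 of 31 up, 1 down and a median of 0.01, but 30 rose and none fell with a median of 0.56 under total count scaling.

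The sexes differed in the size of the change more often than in its direction. The difference between the male and the female change was called for 1710 genes where the male change was higher (9.90%) and 1940 where it was lower (11.2%), and the sign was the same in both sexes for 12948 of the 17270 genes (74.97%). By their p, the leading genes with a higher male change were Calcrl, a receptor component of vascular endothelium, Ntrk2, a neurotrophin receptor, Pcna, Anxa2 (annexin A2) and Anln (anillin, of dividing cells). Ntrk2 changed in opposite directions: it was at 0.233, 0.510 and 0.0915 CPM in young males and 7.75, 17.998 and 19.2 in old males, and at 5.83, 5.46 and 7.57 in young females and 0.594, 0.582 and 0.874 in old females. Its difference was 8.90 ± 0.98. Anxa2 rose by 3.75 ± 0.26 in males and 0.71 ± 0.23 in females. The leading genes with a lower male change were Creb3l3, Mical3, Zfyve26, Mgll and Chrd, and Chrd, a BMP inhibitor, was at 6.21 to 8.56 CPM in young males and 1.63 to 2.17 in old males while females stayed between 2.79 and 3.44. Without old male 1, 2384 differences were called in place of 3650. Sex and library kind coincide across these samples. Each change with age was computed within a sex, but a sex difference of these changes cannot be told apart from a difference by library kind. The share of higher calls, 46.8%, was 88.6% under total count scaling.

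In the 12 livers of nmrHAS2 mice the same contrast called 1914 rises and 1046 falls. The change in CreER livers was higher than in nmrHAS2 livers for 2249 genes (13.0%) and lower for 2391 (13.8%), with 48.5% of these calls higher, or 96.7% under total count scaling.

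Markers of other tissues and of other liver cells were read in the same way. Of 22 endothelial markers 10 rose and 3 fell; Pecam1 rose by 1.34 ± 0.18 and Stab2, a scavenger receptor of sinusoids, by 0.58 ± 0.16. Under total count scaling 16 endothelial markers rose and none fell. Of 14 bile duct markers tested 2 rose and 6 fell over both sexes, or 4 rose and 1 fell under total count scaling. The sexes went opposite ways. In males 5 rose and 1 fell (median 0.43), and in females 1 rose and 7 fell (median −1.32). The sex difference was called for 6, all with the higher change in males. Krt19, a duct keratin, went from 1.81, 2.01 and 9.21 CPM to 0.476, 0.485 and 0.754 in females and overlapped in males. Spp1 (osteopontin) rose from 27.3 to 32.0 CPM to 132, 63.9 and 75.8 in males and was lower in old females without a call (−0.79 ± 0.38). Of the adipocyte markers, Car3, which hepatocytes also express, was at 1679 to 3139 CPM in young females, 100 to 269 in old females, 2195 to 4071 in young males and 8.63, 362 and 503 in old males, while Adipoq was at 0.629 CPM or less in every sample. Pancreatic, gut and skeletal muscle markers summed to at most 38.1, 88.3 and 14.2 CPM in any sample, and among them 2 of 19 tested rose, the muscle genes Ttn and Tnni2.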

How the data were processed

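Bulk RNA of liver tissue was profiled by RNA-seq. The authors deposited 1 table of estimated counts per gene for 40946 genes and 144 samples; reads were processed with Trim Galore 0.6.5 and Salmon 1.4.0, per the submitters' processing notes, and genome build and annotation: not given in the sources used here. Salmon divides reads among similar transcripts, so near-identical genes may exchange counts. The expected counts, as deposited, were rounded to whole numbers.

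Samples were grouped by tissue, genotype, sex and age from the labels. The 24 livers of both genotypes entered 1 fit with 8 group means in edgeR 4.0.16 (R 4.3.3, limma 3.58.1): genes were filtered on low counts by edgeR's rule, TMM scaling was applied, and contrasts were tested by the quasi-likelihood test with Benjamini-Hochberg adjustment over all 17270 genes at a threshold of 0.05. The change over both sexes is the mean of the male and the female change. The script was tested on simulated data. Totals of 21862100 to 97347900 counts per sample set the precision, and genes with few counts carry the larger standard errors.

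Named genes were the 10 largest rises and falls and the 5 most abundant of each among genes called in males too and averaging 2 CPM or more, the 5 smallest p of the sex difference each way, up to 4 called members per list with the smallest p, not all of them described, and members on whose role a description turns; further list members were named after their values were seen. The 48 lists hold 1057 distinct genes, and lists and members were chosen with earlier results of these data known. Folds against a group at 0 used a floor of 3 counts over its 3 samples. Alternatives were DESeq2 1.42.0, other scalings and filters, a replicate block, library kind as a term, the 12 CreER livers alone and leaving out each sample. The other tissues were not analysed here, and a few list members are not reported here.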

Additional observations from a re-analysis of the deposited data

Results flagged for a closer look

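Of the genes named above, 113 had a called difference between the male and the female change with age (edgeR's quasi-likelihood test of the difference, Benjamini-Hochberg adjusted over all genes), 76 with the male change above and 37 with it below. Each value here is the male minus the female log2 change. Since sex and library kind coincide, their parts in these differences cannot be told apart. With the male change above and the signs opposite, the differences were Ntrk2 8.90, Cyp2b13 6.09, Slc22a27 4.62, Acta2 3.76, Scd2 3.45, Gsta1 3.16, Spp1 2.39, Calcrl 2.17 and Tk1 1.64. Stab2, also with opposite signs, had 1.17. With the male change above and the same sign in both sexes, the largest differences were Tnip3 6.04, Cyp3a41a 5.86, Slco1a1 5.24, Pdcd1 4.95, Ccl2 4.27, H19 4.08, Cyp2a4 4.02, Mmp12 3.70 and C3ar1 3.45. Next in size came S100a8 3.38, Ctsc 3.29, Anln 3.07, Anxa2 3.04, Retnlg 3.01, Oas1g 2.85, Ccr2 2.76, Oas3 2.72 and Cd44 2.67. Smaller ones were Pfkp 2.66, Il1rn 2.66, Ctss 2.58, H2-DMb1 2.54, Cd36 2.54, Cd5l 2.51, Mpeg1 2.40, Il2rb 2.37 and Lgals3 2.35. Below these stood Ifit1 2.33, C5ar1 2.32, Pkm 2.26, Hk2 2.25, Vsig4 2.25, Gbp2 2.22, Kif11 2.21, Psat1 2.20 and Abcc4 2.20. Lower still were Golm1 2.20, Lyz2 2.18, G6pdx 2.17, Hmmr 2.13, Mki67 2.09, Isg15 2.08, Mcm4 2.07, Insig1 2.04 and Klf6 2.03. Then followed Vim 2.03, C1qb 2.03, Lpl 2.004, Mcm3 1.97, Timd4 1.87, Oas1a 1.83, Cxcl16 1.81, Irf7 1.79 and Axl 1.77. The series went on with Pcna 1.68, Phlda3 1.63, Atf3 1.60, Rrm1 1.59, Ctsb 1.45, Dcn 1.45, Actb 1.44, Glb1 1.23 and Pecam1 1.17. At the lower end were Timp2 0.96, Jak2 0.79 and Mmp14 0.72. The sizes for Tnip3 and Pdcd1, absent from young males, and for Cyp3a41a and Slco1a1, with few counts in an arm, cannot be read.

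With the male change below and the signs opposite, the differences were Zfyve26 −1.41, Glul −1.63, Chrd −2.11, Mgll −3.05, Cyp8b1 −3.52, Acot1 −3.80 and Cyp4a10 −4.59. With the male change below and the same sign, they were Insr −0.64, Ndufv1 −0.65, Uqcrc1 −0.69, Hspd1 −0.77, Hspe1 −0.78, Dgat2 −0.78, Apoe −0.85, Ndufb9 −1.01 and Ttr −1.02. Again below with the same sign were Sod1 −1.02, Apoa2 −1.35, Serpina1c −1.38, Acads −1.42, Nr1i3 −1.44, Slc10a1 −1.48, Ahcy −1.52, Hlf −1.57 and Ppara −1.61. The remaining ones were Mical3 −1.63, Gcgr −1.64, Hyal1 −1.84, Cpt2 −1.88, Mlxipl −1.88, Hspb1 −1.91, Notum −2.02, Creb3l3 −2.36 and Cyp2c40 −3.44. Mup17 had −10.23. Mup15 (−17.79) and Mup10 (−11.93) also had called differences, whose sizes cannot be read: Mup15 had no counts in old males, and the Mup10 values in old females split with the kind of library. Without old male 1, 2384 sex differences were called over all genes in place of 3650.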

How the results depend on the processing

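The number of genes called with age over both sexes was 9540, and ranged from 8651 without old male 1 to 9412 without old male 3. In males it was 9535, ranging from 8096 without old male 1 to 9616, and in females 4214, ranging from 2955 without young female 2 to 4364. Sex differences numbered 3650, ranging from 2384 without old male 1 to 3384, and genotype differences 4640, ranging from 3615 to 4594. DESeq2 called 9799 genes over both sexes and RLE size factors 9297. In females, 2752 genes were called with library kind as a term and 1731 within 1 library kind. Total count scaling, chosen after seeing the data, turned the medians of glycolysis (0.23), complement (0.50), stress response (0.21) and NRF2 genes (0.46), and the changes of Crp (0.10), Cxcl12 (0.22), Glul (0.19) and Zfyve26 (0.14). The NRF2 median ranged from −0.12 to 0.015 when each sample was left out and was above 0 without old male 2. Of 243 named genes, 198 kept their direction and their side of the threshold over both sexes in each of the 21 alternatives. With library kind as a term, Mup10 changed by −2.73 in place of 2.50. The cause of these shifts was not tested, apart from the scaling's own construction. With a replicate block 9534, 9442, 4260, 3668 and 4720 genes were called in the same order of comparisons. Same-numbered samples did not deviate together (correlations of 0.08, −0.01 and 0.05 in females and 0.07, −0.05 and 0.14 in males), so the numbers were not taken to pair samples.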
